A study of Mus musculus with 8 samples.

Results

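Complex I of the mitochondrial respiratory chain was examined through the genes whose symbol on the array begins with Nduf. All such genes with a probe set of their own were taken, each read by the probe set whose mean level over the 8 arrays was highest, which gave 44 of the 18193 genes measured. Of these, 6 encode core subunits, 28 encode accessory subunits, 8 encode assembly factors (Ndufaf1 to Ndufaf8) and 2, Ndufa4 and Ndufa4l2, carry the name but are placed outside complex I. The accessory subunits Ndufs6 and Ndufa11 were read only by probe sets that name several genes and were not used. The samples were hearts of female knock-out (KO) mice, in which a gene is deleted conditionally by a driver of MCK, muscle creatine kinase, active in heart and skeletal muscle cells. Wild-type (WT) littermates served as controls. There were 4 groups, KO and WT at 4 weeks and KO and WT at 10 weeks of age, each of 2 hearts on 1 Affymetrix mouse array apiece, 8 arrays in all. The sources used here do not say what else the WT littermates carried, so any allele or driver they shared with the KO mice is not known here. Other cells of the heart are a part of every sample, and in whole hearts fewer cells of a type and less RNA per cell cannot be told apart.

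Complex I takes electrons from NADH and passes them to ubiquinone while it pumps protons across the inner mitochondrial membrane. Its core subunits do the catalysis: a flavin in the NADH-binding tip of the matrix arm accepts the electrons, a chain of iron-sulfur clusters carries them, and the last cluster reduces the quinone. The accessory subunits surround this core and are needed for its stability, and the assembly factors build the complex but are not a part of it. The membrane-embedded core subunits are encoded in mitochondrial DNA, whereas all Nduf genes lie in the nucleus. Heart muscle lives mainly on oxidative metabolism and is rich in complex I.

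Levels are log2 intensities of the probe sets, and differences are KO minus WT on that scale with their standard error (SE), n = 2 arrays per group throughout. A gene is said to have fallen or risen where limma's test passed an adjusted p of 0.05 (Benjamini-Hochberg, all 18193 genes). Before log2 was taken the array medians were 34.3 to 37.4, and precision is limited by how few arrays there are. The 2 mice of a group were separate animals, and the 4 of an age were littermates, so an effect of age cannot be told apart from that of litter. If the day of processing differed between the ages, its effect could not be told apart from age either.

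At 10 weeks most of the Nduf genes fell in the KO hearts. Of the 44, 34 were lower, 0 were higher and 10 were not called, against 6.89% of all genes lower and 5.19% higher. With only the 10-week groups in the fit 22 were lower, against 3.07% of all genes. The only member with a difference above 0 was Ndufb4 at 0.03, so the 0 higher calls are also 0 at an unadjusted p under 0.05. The median difference was -0.85, with a range of -1.51 to 0.03, beside a median of 0.00 over all genes. On the 10-week KO arrays the members lay at a median of -0.87 and -0.74 from their 4-week WT mean. On the 4-week KO arrays this was -0.09 and -0.05, and on the 10-week WT arrays 0.07 and -0.11. Both 10-week KO arrays lay below the other 6 arrays for 38 of the 44 genes, against 14.0% of all genes. The 6 exceptions were Ndufs1, Ndufv1, Ndufa10, Ndufb4, Ndufaf1 and Ndufa4l2.

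**Figure D1:**
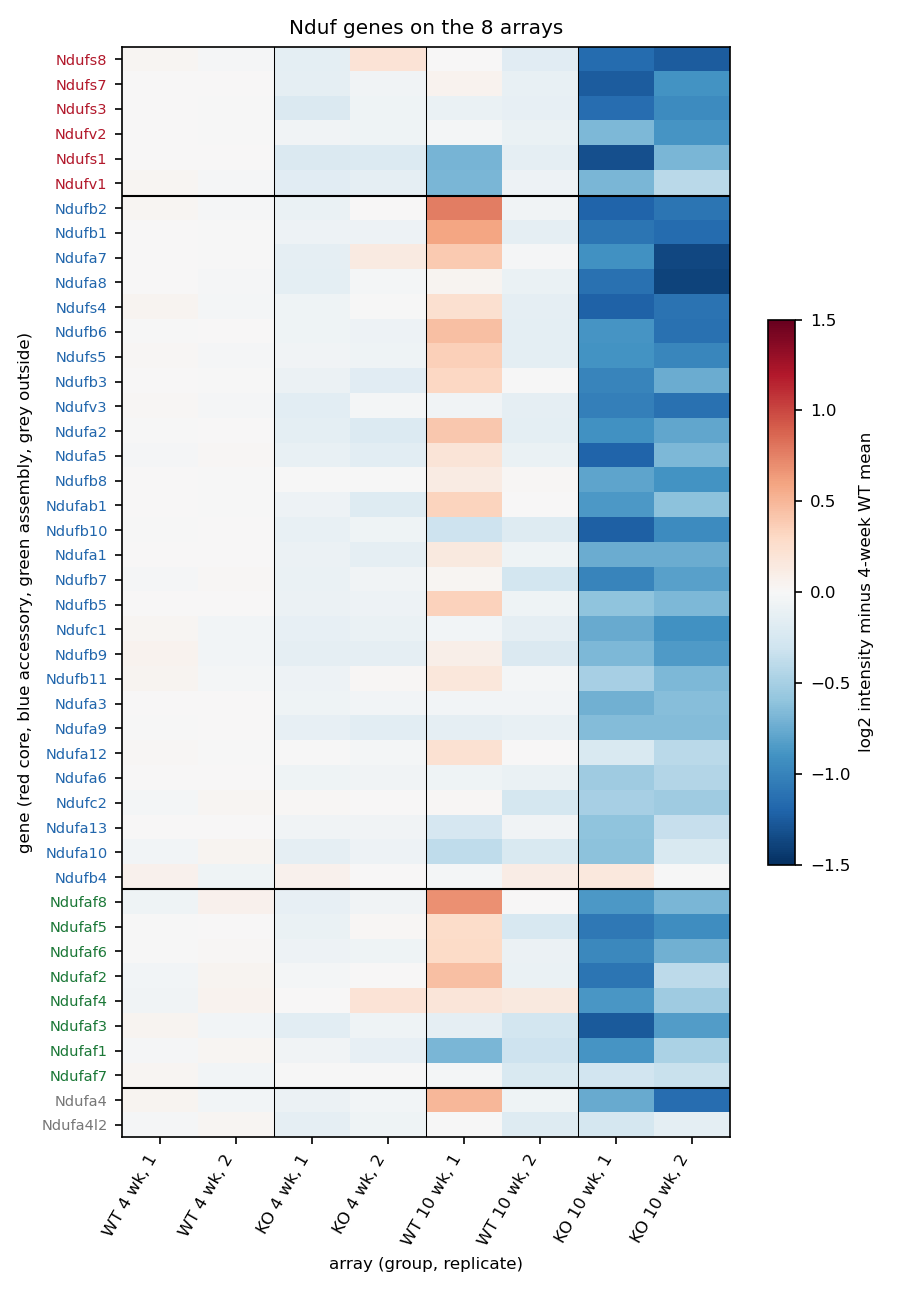
Heat map of the 44 Nduf genes (rows, grouped by class and ordered by their 10-week difference) on the 8 arrays (columns); colour gives log2 intensity minus the mean of the 4-week WT arrays of that gene. The 10-week KO columns are blue in nearly all rows, with medians of -0.87 and -0.74, while 10-week WT replicate 1 is red for many accessory and assembly genes and blue for Ndufs1, Ndufv1 and Ndufaf1.

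Among the core subunits 4 of 6 fell at 10 weeks, with a class median of -0.82. Ndufs8, which holds iron-sulfur clusters on the way from the NADH module to the quinone, read 13.01 and 12.84 in WT and 11.85 and 11.76 in KO at 10 weeks. Its 4-week levels were 13.04 and 12.99 in WT and 12.86 and 13.21 in KO. The 10-week KO arrays therefore stood alone below the other 6. Ndufs8 fell by 1.12 ± 0.14 (SE, adjusted p = 0.00141), to 46.1% of the WT level. Ndufs7, the subunit with the last cluster before the quinone, read 12.26 and 12.10 in WT and 10.96 and 11.31 in KO at 10 weeks, against 12.21 and 12.21 in WT and 12.08 and 12.16 in KO at 4 weeks. The KO arrays of the older mice were again the lowest. It fell by 1.05 ± 0.14 (adjusted p = 0.00176), to 48.4% of WT.

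Ndufs3, a core subunit beside the quinone-binding part that holds no cluster, moved in the same way. Its 10-week levels were 11.86 and 11.84 in WT and 10.82 and 11.02 in KO, a fall of 0.93 ± 0.13 (adjusted p = 0.00169), and its 4-week levels were 11.97 and 11.95 in WT and 11.74 and 11.89 in KO. Ndufv2, which holds a cluster in the NADH module, read 12.93 and 12.86 in WT and 12.29 and 12.07 in KO at 10 weeks. It fell by 0.72 ± 0.12 (adjusted p = 0.00537), and its 4-week levels of 12.97 and 12.95 in WT and 12.91 and 12.90 in KO differed little. For both genes the groups of the older mice did not overlap.

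The remaining core subunits, both in the NADH module, were not called. Ndufv1, which binds NADH and the flavin, read 11.93 and 12.53 in WT and 11.92 and 12.21 in KO at 10 weeks, a difference of -0.17 ± 0.19 (adjusted p = 0.691). At 4 weeks it read 12.64 and 12.59 in WT and 12.44 and 12.48 in KO. The 10-week groups overlapped, since WT replicate 1 was as low as KO replicate 1. Ndufs1, the largest subunit of the complex and a carrier of several clusters, read 11.18 and 11.74 in WT and 10.56 and 11.20 in KO at 10 weeks, a difference of -0.58 ± 0.23 (adjusted p = 0.153), against 11.89 and 11.88 in WT and 11.66 and 11.68 in KO at 4 weeks. Here too WT replicate 1 was low and lay at the level of a KO array. Without that array Ndufs1 was called, at -0.86 (adjusted p = 0.0357), whereas Ndufv1 stood at -0.47 against WT replicate 2 alone and at 0.13 against replicate 1 alone. The further probe sets of Ndufv1 gave -0.15 and -0.28, so its small difference did not rest on the probe set used. Of the 5 core subunits that hold a cluster 3 were lower, with a median of -0.72.

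**Figure D2:**
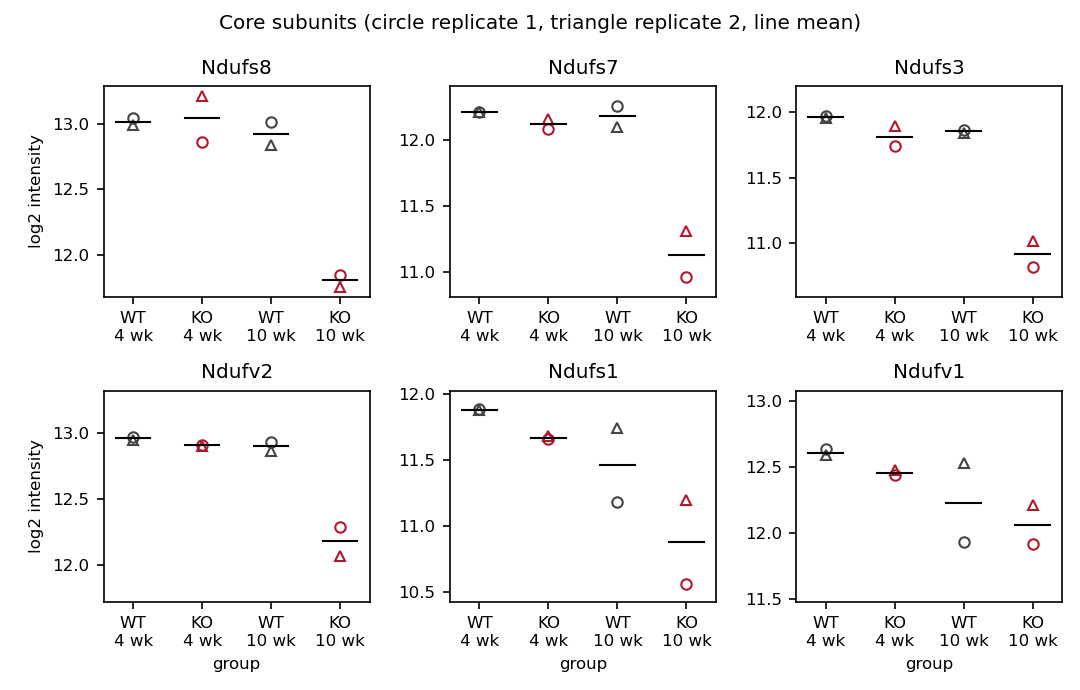
Log2 intensity of the 6 core subunits in the 4 groups; circles are replicate 1, triangles replicate 2, lines the group mean, and each panel has its own axis, which does not start at 0. The 10-week KO points of Ndufs8, Ndufs7, Ndufs3 and Ndufv2 lie below all others, while for Ndufs1 and Ndufv1 the 2 WT points at 10 weeks are 0.56 and 0.60 apart.

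Of the 28 accessory subunits 23 fell, with a class median of -0.81, and 14 did with only the 10-week groups in the fit. The largest difference of all Nduf genes was that of Ndufb2, a small subunit of the membrane arm. It read 12.84 and 12.02 in WT and 10.87 and 10.97 in KO at 10 weeks, and 12.10, 12.05, 11.97 and 12.07 in the 4-week WT and KO arrays in that order. Only the older KO mice were low, and WT replicate 1 of that age was the highest of the 8 arrays. Ndufb2 fell by 1.51 ± 0.22 (adjusted p = 0.00262), and the KO mean lay at -1.92 from WT replicate 1 and at -1.10 from replicate 2. Ndufb1, also of the membrane arm, had the same shape, with 8.43 and 7.70 in WT and 6.75 and 6.69 in KO at 10 weeks and 7.84, 7.83, 7.76 and 7.76 at 4 weeks. It fell by 1.34 ± 0.20 (adjusted p = 0.00298).

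Ndufa7 and Ndufs4 sit in the matrix arm near the NADH module, and loss of Ndufs4 is a known cause of Leigh-like disease. Ndufa7 read 12.61 and 12.20 in WT and 11.31 and 10.85 in KO at 10 weeks, against 12.22, 12.21, 12.09 and 12.35 at 4 weeks, and fell by 1.32 ± 0.19 (adjusted p = 0.00224). Ndufs4 read 11.37 and 11.00 in WT and 9.92 and 10.02 in KO at 10 weeks, against 11.17, 11.10, 11.06 and 11.12 at 4 weeks, and fell by 1.21 ± 0.14 (adjusted p = 0.000909). In both genes the older KO hearts were at 40.0% and 43.1% of WT. Ndufa8 and Ndufs5 face the intermembrane space. Ndufa8 read 12.45 and 12.31 in WT and 11.29 and 11.02 in KO at 10 weeks, against 12.42, 12.39, 12.26 and 12.38 at 4 weeks, and its fall of 1.23 ± 0.13 had the smallest adjusted p of the Nduf genes (0.000616). Ndufs5 read 12.45 and 11.94 in WT and 11.19 and 11.11 in KO, against 12.11, 12.07, 12.04 and 12.03, a fall of 1.04 ± 0.16 (adjusted p = 0.00347).

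The membrane-arm subunits Ndufb6 and Ndufb3 completed the 8 accessory genes with the largest difference. Ndufb6 read 12.17 and 11.57 in WT and 10.83 and 10.60 in KO at 10 weeks, against 11.71, 11.72, 11.66 and 11.64 at 4 weeks, a fall of 1.15 ± 0.19 (adjusted p = 0.00401). Ndufb3 read 11.34 and 11.02 in WT and 10.04 and 10.28 in KO, against 11.04, 11.02, 10.94 and 10.86, a fall of 1.02 ± 0.15 (adjusted p = 0.00227). For all 8 genes the KO arrays of 10 weeks were the lowest of the 8 arrays. The other 15 called accessory subunits ranged from -0.99 for Ndufv3, of the NADH module, to -0.40 for Ndufa6, of the matrix arm. They include Ndufab1, the mitochondrial acyl carrier protein that also serves fatty acid synthesis, at -0.91. Ndufa6 passed by little (adjusted p = 0.0486) and lost its call under 14 of 19 other settings, with values of -0.45 to -0.28.

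**Figure D3:**
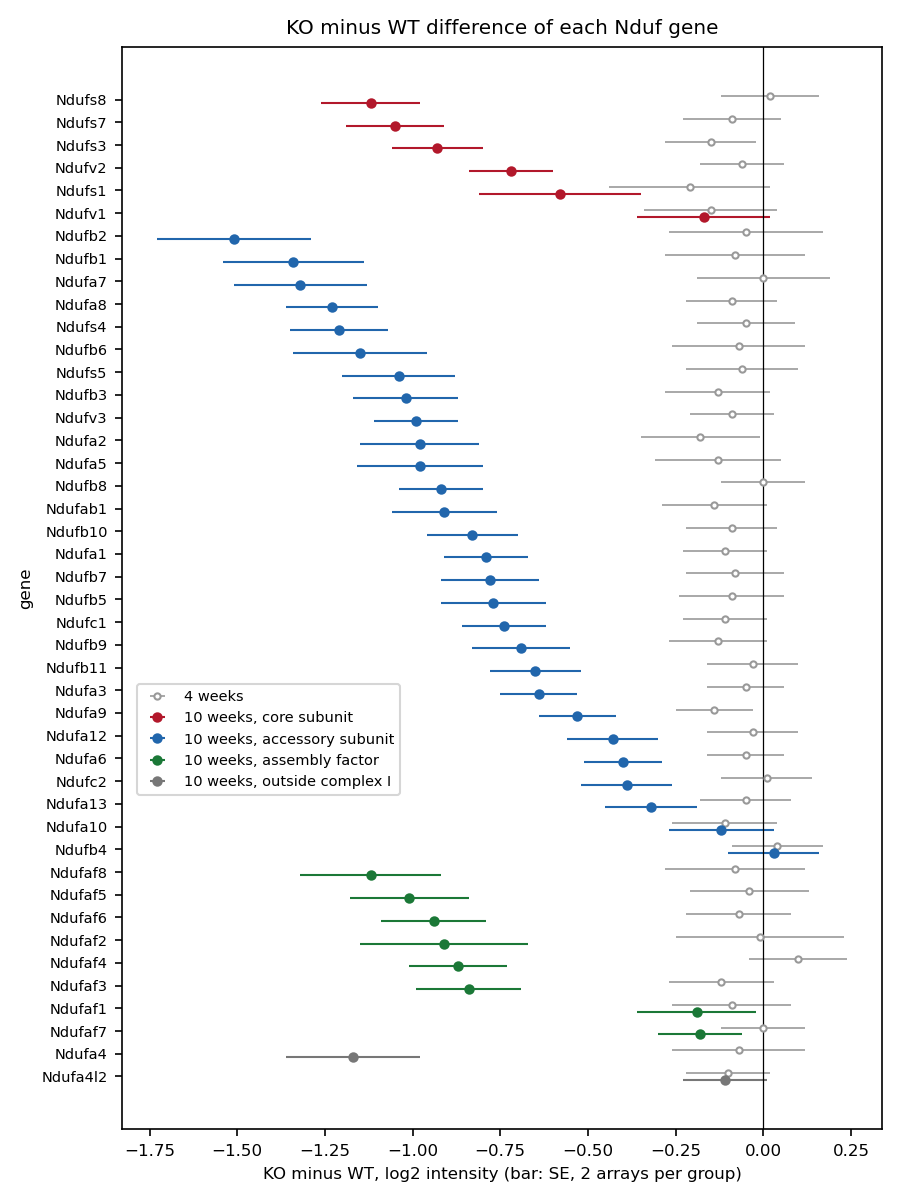
KO minus WT difference of each Nduf gene on the log2 scale, with its SE, at 10 weeks (filled, coloured by class) and at 4 weeks (open, grey). At 4 weeks the points lie between -0.21 and 0.10, and at 10 weeks between -1.51 and 0.03, with Ndufv1, Ndufa10, Ndufb4, Ndufaf1, Ndufaf7 and Ndufa4l2 nearest to 0.

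The 5 accessory subunits that were not called were Ndufa12 (-0.43, adjusted p = 0.0598), Ndufc2 (-0.39, 0.0875), Ndufa13 (-0.32, 0.173), Ndufa10 (-0.12, 0.733) and Ndufb4 (0.03, 0.934). Ndufb4, of the membrane arm, was the member with the opposite sign. Its single usable probe set read 3.97 and 4.11 in WT and 4.16 and 3.99 in KO at 10 weeks and 4.06, 3.94, 4.07 and 4.01 at 4 weeks. Those levels are below the median intensity of every array, the groups overlapped, and a dim probe set limits what can be read of the gene. Ndufc2, Ndufa10 and Ndufa12 differed between their own probe sets, here tested by limma with adjustment over all probe sets. For Ndufc2, 2 further sets with a mean level above 8 gave -0.81 and -1.10 (adjusted p = 0.0139 and 0.00548). A dimmer set of Ndufa10 gave -1.17 (0.0179). For Ndufa12, 2 further bright sets gave -0.53 and -0.53 (0.0248 and 0.0358). A dim set gave 0.06 for Ndufc2 (0.862) and -0.32 for Ndufa12 (0.442). Whether these genes were called therefore depended on the probe set chosen.

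By place in the complex, 5 of the 5 genes of the quinone-binding module fell, with a median of -0.98 (Ndufs3, Ndufs7, Ndufs8, Ndufa5 and Ndufa9). In the NADH-binding module 6 of 9 fell (median -0.72), and in the membrane arm 16 of 20 (median -0.78). No test of a difference between modules or classes was run, so these medians are given as a description.

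Of the 8 assembly factors 6 fell, with a class median of -0.89. Ndufaf5, which modifies an arginine of Ndufs7, and its partner Ndufaf8 were both lower. Ndufaf8 read 10.34 and 9.66 in WT and 8.79 and 8.97 in KO at 10 weeks, and 9.58, 9.71, 9.53 and 9.60 at 4 weeks, a fall of 1.12 ± 0.20 (adjusted p = 0.00662). Ndufaf5 read 8.01 and 7.50 in WT and 6.67 and 6.81 in KO at 10 weeks, and 7.73, 7.75, 7.64 and 7.76 at 4 weeks, a fall of 1.01 ± 0.17 (adjusted p = 0.00441). Ndufaf3 and Ndufaf4 act together in building the quinone-binding module. Ndufaf4 read 9.44 and 9.41 in WT and 8.39 and 8.73 in KO at 10 weeks, and 9.21, 9.31, 9.26 and 9.46 at 4 weeks, a fall of 0.87 ± 0.14 (adjusted p = 0.00478), and its other probe set gave -1.70. Ndufaf3 read 8.90 and 8.76 in WT and 7.78 and 8.20 in KO, and 9.08, 9.00, 8.88 and 8.97 at 4 weeks, a fall of 0.84 ± 0.15 (adjusted p = 0.00718). In these 4 genes no 10-week KO array reached any WT array.

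Ndufaf6, needed early in assembly, read 8.06 and 7.68 in WT and 6.80 and 7.05 in KO at 10 weeks, and 7.76, 7.79, 7.69 and 7.71 at 4 weeks, a fall of 0.94 ± 0.15 (adjusted p = 0.00416). Ndufaf2, a paralog of the subunit Ndufa12 that acts late in assembly, read 8.15 and 7.60 in WT and 6.61 and 7.31 in KO at 10 weeks, and 7.66, 7.74, 7.67 and 7.70 at 4 weeks. Its fall of 0.91 ± 0.24 (adjusted p = 0.0346) rested on wide groups, and without 10-week KO replicate 1 it stood at -0.56 (adjusted p = 0.215). Ndufaf1, of the complex that assembles the membrane arm, was not called: it read 8.42 and 8.80 in WT and 8.22 and 8.64 in KO at 10 weeks, and 9.09, 9.14, 9.06 and 8.99 at 4 weeks. The difference was -0.19 ± 0.17 (adjusted p = 0.61). Its mean was lower at 10 than at 4 weeks in both genotypes, but neither change was called by limma. The change was -0.50 in WT (adjusted p = 0.229) and -0.60 in KO (0.0589), and age cannot be told apart from litter. Ndufaf7, a methyltransferase, read 7.08 and 6.88 in WT and 6.82 and 6.78 in KO, and 7.14, 7.07, 7.10 and 7.10 at 4 weeks, a difference of -0.18 ± 0.12 (adjusted p = 0.431). Without 10-week KO replicate 1 the lower assembly factors numbered 3 of 8, with a median of -0.66, and with only the 10-week groups in the fit they also numbered 3.

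Of the Nduf genes outside complex I, Ndufa4, which was later placed in complex IV, fell by 1.17 ± 0.19 (adjusted p = 0.00437). It read 13.07 and 12.51 in WT and 11.81 and 11.43 in KO at 10 weeks, and 12.61, 12.53, 12.48 and 12.53 at 4 weeks. Ndufa4l2, its hypoxia-induced paralog, read 7.70 and 7.52 in WT and 7.45 and 7.56 in KO, and 7.69, 7.74, 7.58 and 7.64 at 4 weeks. The difference was -0.11 ± 0.12 (adjusted p = 0.687), with overlapping groups.

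At 4 weeks limma called 0 of the 44 genes in either direction, as it called 0% of all genes lower. The smallest unadjusted p of a member was 0.239, so 0 members passed an unadjusted p under 0.05, where 1.95% of all genes were lower. The differences ranged from -0.21 to 0.10 with a median of -0.08. They were below 0 for 39 of 44 genes, against 46.6% of all genes, and both KO arrays lay below both WT arrays for 31 of 44, against 17.5% of all genes. The members share their arrays, so such a count says no more than that these 2 KO arrays were slightly lower for most of them. The core class had a 4-week median of -0.12, the accessory class -0.08 and the assembly factors -0.05.

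The difference between the ages was tested directly as the 10-week difference minus the 4-week difference. It was below 0 for all 44 genes, with a median of -0.75, against 9593 of all 18193 genes and a median of -0.02. The members share their arrays, so the 44 are not separate readings of this difference. By limma 8 genes were called lower and 0 higher, against 1.20% of all genes lower. They were Ndufs4, Ndufa7, Ndufa8, Ndufb8, Ndufv3 and the core subunits Ndufs7 and Ndufs8 together with the assembly factor Ndufaf4. Ndufa8 stood at -1.14 ± 0.19 (adjusted p = 0.0221), Ndufs4 at -1.17 ± 0.20 (0.0259) and Ndufs8 at -1.14 ± 0.21 (0.0289). This count depended on single arrays: it was 0 without 4-week WT replicate 1, 4-week WT replicate 2 or 4-week KO replicate 2. It was 1 without 4-week KO replicate 1 or 10-week KO replicate 1, 2 without 10-week KO replicate 2 and 28 without 10-week WT replicate 2. A gene outside the 8 is therefore not shown to have the same difference at both ages.

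Between 4 and 10 weeks the WT hearts had no Nduf gene called by limma, lower or higher, against 0.0660% of all genes lower, and the median change was 0.00. A single member, Ndufaf1, was under 0.05 before adjustment, at -0.50 ± 0.17 (limma, adjusted p = 0.229). Without 10-week WT replicate 2 the calls were 2 lower and 3 higher. In the KO hearts 33 of 44 genes were lower at 10 than at 4 weeks, against 7.07% of all genes, with a median of -0.73. This comparison shares the 10-week KO arrays with the one of genotype. Ndufs8 differed by -1.23 between the ages in KO and by -0.09 in WT, and Ndufa8 by -1.16 and -0.02. The 33 became 16 and 8 without 4-week KO replicates 1 and 2, and 14 without 10-week KO replicate 1.

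The 10-week WT mice differed from each other more than those of any other group in these genes. Replicate 1 was higher than replicate 2 for 36 genes and lower for 8, with gaps of -0.60 to 0.82, and 19 gaps exceeded 0.3, of which 16 were upward. In the 4-week WT pair 0 gaps exceeded 0.3, in the 4-week KO pair 1, and in the 10-week KO pair 10. The 10-week WT pair was also the widest over all genes, with 5th and 95th percentiles of the gap at -0.62 and 0.49, against -0.28 and 0.28 in 4-week WT, -0.41 and 0.32 in 4-week KO and -0.42 and 0.36 in 10-week KO. The genes that were higher in replicate 1 were led by Ndufb2 (0.82), Ndufb1 (0.73) and Ndufaf8 (0.68), and the lower ones by Ndufv1 (-0.60), Ndufs1 (-0.56) and Ndufaf1 (-0.38). The size of the difference therefore varied with the WT animal: Ndufaf1 stood at 0.00 against replicate 1 and at -0.37 against replicate 2. The median over the Nduf genes was -0.75 without WT replicate 1 and -0.93 without replicate 2, and 33 and 35 genes were lower. Replicate 1 also had the higher summed signal of 5 liver and kidney markers (4580 against 549 on the linear scale) and the lower of 10 cardiomyocyte markers (122000 against 140000). Their part in the gap was not tested.

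**Figure D4:**
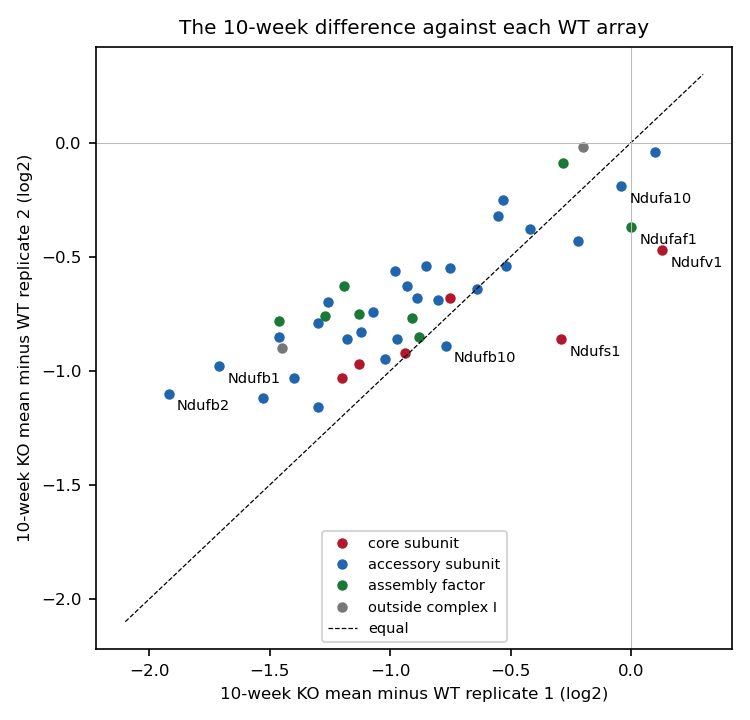
Mean of the 10-week KO arrays minus WT replicate 1 (x axis) and minus WT replicate 2 (y axis) for each Nduf gene, in log2; the dashed line marks equal values. Most genes lie above the line, that is, further down against replicate 1, whereas Ndufv1 (0.13 and -0.47), Ndufs1, Ndufaf1, Ndufa13, Ndufa10, Ndufb4, Ndufb10 and, by 0.02, Ndufa9 lie below it.

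Further probe sets give a second reading of the same RNA. Of the 44 genes 22 had more than 1 probe set, with 44 further sets. Of these, 28 had a mean log2 level of 8 or more. All 28 gave the same sign as the set used, 19 of them within 0.3. Among those further apart, only the set of Ndufb6 gave a smaller fall than the set used (-0.84 against -1.15). The remainder gave larger falls, such as -1.09 against -0.65 for Ndufb11 and -1.20 against -0.74 for Ndufc1. The size of a fall therefore depended on the probe set chosen. The 5 further sets of Ndufs8 gave -0.95, -0.95, -1.37, -1.05 and, on a dim set, -0.34. Those of Ndufa7 gave -1.56, -1.38, -1.70 and -1.68. Of the 16 dimmer sets 2 had the opposite sign. Once probe sets of shared sequence were dropped, the sets left for Ndufb2 and Ndufb8 were dim and no longer called (-0.33, adjusted p = 0.273 and -0.24, adjusted p = 0.372).

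The promoters of the Nduf genes are shown for members that fell and for a member that was not called. A RefSeq promoter (GRCm38.p6), from 250 bases before to 50 bases after the gene's start, was found for 39 of the 44 genes. The 250 bases before the start, on the gene's own strand from 5′ to 3′, are printed for Ndufa8 (chr2:36049339-36049588, minus strand), Ndufaf4 (chr4:24897833-24898082, plus strand), Ndufs3 (chr2:90904722-90904971, minus strand) and Ndufv1 (chr19:4012756-4013005, minus strand). Capitals mark the letters of the NRF1 motif in Ndufa8 and Ndufaf4 and of the ETS motif in Ndufs3, while Ndufv1 held no match to any motif searched.
Ndufa8: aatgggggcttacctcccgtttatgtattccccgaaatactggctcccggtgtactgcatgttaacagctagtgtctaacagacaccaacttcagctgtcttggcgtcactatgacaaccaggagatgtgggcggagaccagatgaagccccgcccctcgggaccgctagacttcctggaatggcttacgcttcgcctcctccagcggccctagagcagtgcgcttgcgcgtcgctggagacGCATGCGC
Ndufaf4: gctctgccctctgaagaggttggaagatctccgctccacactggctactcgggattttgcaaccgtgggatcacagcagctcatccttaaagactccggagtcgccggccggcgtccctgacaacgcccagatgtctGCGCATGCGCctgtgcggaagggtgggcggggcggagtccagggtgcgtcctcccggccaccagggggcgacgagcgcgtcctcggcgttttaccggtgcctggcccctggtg
Ndufs3: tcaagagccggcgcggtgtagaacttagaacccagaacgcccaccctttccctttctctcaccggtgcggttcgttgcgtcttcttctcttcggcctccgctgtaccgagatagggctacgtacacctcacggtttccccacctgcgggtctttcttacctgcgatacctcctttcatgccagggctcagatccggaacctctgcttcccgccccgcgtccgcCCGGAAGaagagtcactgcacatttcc
Ndufv1: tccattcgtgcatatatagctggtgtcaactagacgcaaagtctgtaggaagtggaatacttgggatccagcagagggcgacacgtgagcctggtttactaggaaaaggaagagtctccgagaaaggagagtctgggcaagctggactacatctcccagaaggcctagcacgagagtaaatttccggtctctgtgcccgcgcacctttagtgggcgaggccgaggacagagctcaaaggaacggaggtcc

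Motifs of 4 factors known to act at mitochondrial genes were searched on both strands of the 300-base windows. The NRF1 motif GCATGCGC was held by 4 of 39 Nduf promoters (10.3%; Ndufa6, Ndufa8, Ndufaf4 and Ndufaf5), against 3.05% of all 27025 genes with a promoter. In Ndufaf4 the capitals hold 2 overlapping matches, 1 on each strand. The YY1 motif AANATGGCG was held by 7 (17.9% against 2.76%), in Ndufa7, Ndufa9, Ndufaf8, Ndufb11, Ndufc1, Ndufs4 and Ndufs7. The ETS motif CCGGAAG was held by 6 (15.4% against 9.93%) and the ERR motif AAGGTCA by 3 (7.69% against 5.38%). Among the 31 Nduf genes that fell and have a promoter, 4 held the NRF1 motif (12.9%) and 7 the YY1 motif (22.6%). Among the 8 that were not called 0 held either, but 8 genes are too few to tell this from the shares over all Nduf promoters. The ETS motif was held by 5 of these 31 (16.1%) and 1 of the 8 (12.5%), and the ERR motif by 2 (6.45%) and 1 (12.5%). These letters are a description of the windows, and their part in the falls was not tested. Of 10 regulators of mitochondrial genes 1 was lower at 10 weeks (10%, against 6.89% of all genes), Yy1 itself at -0.71 ± 0.15 (adjusted p = 0.0127), 0 were higher, and the median was -0.19. Pprc1, a coactivator related to PGC-1alpha, stood at 0.60 ± 0.17 (adjusted p = 0.0512). Ppargc1a, the coactivator PGC-1alpha, stood at 0.59 ± 0.27 (adjusted p = 0.226) and Tfam, which maintains mitochondrial DNA, at -0.38 ± 0.18 (0.259).

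The other genes of complex I assembly and of the respiratory chain are given beside the Nduf genes. Of 11 measured assembly genes without an Nduf name 6 were lower at 10 weeks, against 6.89% of all genes, with a median of -0.64. Tmem126a fell by 1.35 ± 0.20 (adjusted p = 0.00241), Tmem70, which also serves ATP synthase, by 0.99 ± 0.12 (0.0012), Ecsit, a partner of Ndufaf1, by 0.94 ± 0.14 (0.00294) and Tmem126b, of the same complex, by 0.87 ± 0.19 (0.0152). The 5 genes of the list that were not called include Tmem186 (-0.41 ± 0.18, adjusted p = 0.206) and Acad9 (0.17 ± 0.23, 0.751), the only one above 0. Ndufaf1 itself was not called, as given above. Without 10-week KO replicate 1 these 6 became 3, with a median of -0.48.

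Of 14 genes of complexes II and III 8 were lower (median -0.57), and of 12 of complex IV 6 (median -0.37). Of 15 genes of ATP synthase 8 were lower (median -0.54). Among the Nduf genes these were 34 of 44 with a median of -0.85, and 6.89% of all genes were lower. The muscle isoform Cox7a1 of complex IV fell further than any Nduf gene, at -2.13 ± 0.13 (adjusted p = 3.4e-05). Atp5e of ATP synthase stood at -1.72 ± 0.24 (0.00188) and Uqcr11 of complex III at -1.53 ± 0.17 (0.000643). Both lay within 1 SE of the lowest Nduf gene, Ndufb2 at -1.51 ± 0.22. No test compared the lists, which also differ in level. On the 4-week WT arrays the mean log2 level was 11.29 and 11.28 for the Nduf genes. It was 12.24 and 12.27 for complexes II and III, 12.24 and 12.26 for complex IV and 13.08 and 13.06 for ATP synthase. The part of level in these medians was not tested. With only the 10-week groups in the fit the counts were 3 for each of the 3 lists. Without 10-week KO replicate 1 the counts were 4 for complexes II and III and 5 for ATP synthase. Without 10-week KO replicate 2 they were 5 for ATP synthase and 3 for complex IV, and without 10-week WT replicate 1 complex IV had 3. The Nduf count under the same omissions was 27, 29 and 33. At 4 weeks 0 genes of these 3 lists were called by limma, and 0 were lower at an unadjusted p under 0.05.

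**Figure D5:**
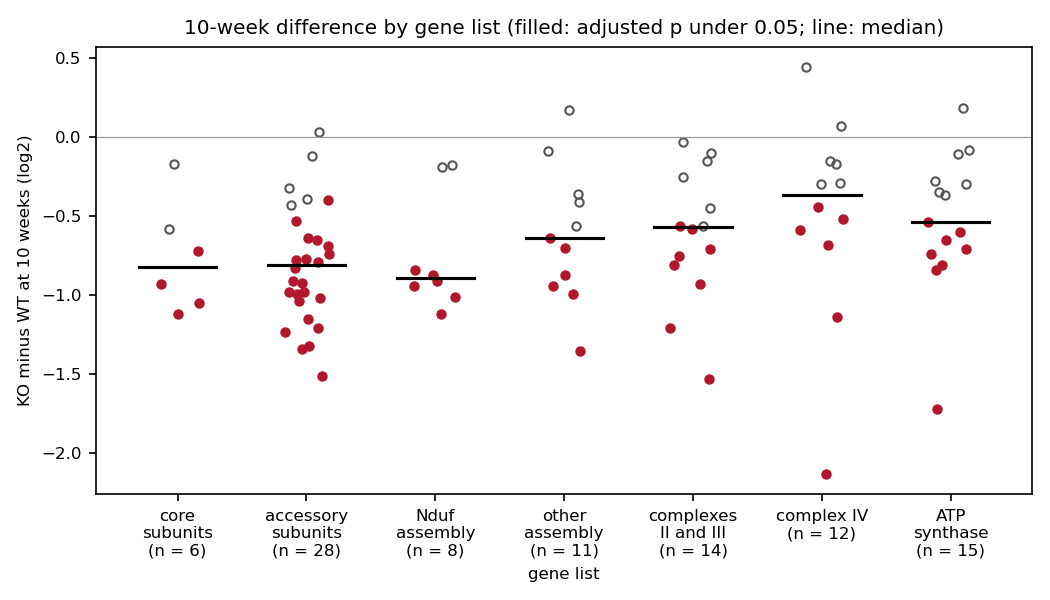
KO minus WT difference at 10 weeks of each gene (points, spread sideways for display), by gene list; filled points passed limma's test (adjusted p under 0.05) and the line is the list's median. The complex I classes have medians of -0.82, -0.81 and -0.89, and the other lists lie between -0.64 and -0.37.

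Of the markers of the cells of the heart, those of fibroblasts and macrophages were mostly higher in the 10-week KO hearts. Over all genes 6.89% were lower and 5.19% higher at that age. Of 10 cardiomyocyte markers 3 were lower (median -0.27), and their summed linear signal was 112000 to 121000 in KO and 122000 to 140000 in WT, against 135000 to 142000 over the 4-week arrays. Of 8 fibroblast markers 7 were higher (median 1.13), with sums of 20600 to 21000 in KO and 6310 to 8370 in WT, and of 9 macrophage markers 5 were higher, with sums of 7610 to 9400 and 5150 to 5920. Of 7 endothelial markers 1 was higher (sums 1990 to 2220 and 1840 to 2350) and of 5 blood markers 0 were called (480 to 746 and 654 to 912). Of 5 liver and kidney markers 1 was lower and 0 were higher (median -2.29), with sums of 193 to 319 in KO and 549 to 4580 in WT. Of 7 brown fat and skeletal muscle markers 1 was lower and 1 higher (range -0.99 to 2.45), with sums of 12100 to 17600 and 11400 to 12000. The sums of 4 atrial markers were 23300 to 23600 and 16000 to 24100. The atrial markers went both ways: Nppa rose by 1.04 and Sln fell by 2.35, while Myl7 (-1.56) and Myl4 (-0.82) were not called, and the median was -1.19. The 3′ minus 5′ signal, a sign of RNA quality, ran from -0.21 to -0.10 for Gapdh and from 0.25 to 0.46 for Actb over the 8 arrays. The cardiomyocyte markers were present at high levels on every array, and the part of these shifts in the fall of the Nduf genes was not tested.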

How the data were processed

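Total RNA of 8 mouse hearts was hybridised to Affymetrix arrays. The deposited values are linear probe set intensities, for which the submitters' processing notes name GCOS 1.3 and RMA, without their order or the version of RMA. RMA equalises the arrays' distributions, so a shift of all genes cannot be seen. Here log2 was taken with no pseudocount or filter. Of 45037 probe sets without controls, 34945 named 1 gene, and the brightest per gene gave 18193 genes. A model with 1 mean per group was fitted in limma 3.58.1 (R 4.3.3; eBayes without trend or robust settings, 4 residual and 9.33 total degrees of freedom, median SE 0.145), with two-sided tests and Benjamini-Hochberg adjustment over all genes. It was tested on simulated data with independent noise, of the same spread in all groups for a gene. The real 10-week WT pair was wider than the other pairs, so that simulation cannot show how the fit copes with unequal spread. Replicate numbers were not used as pairs, since the labels do not say that they pair the mice. Deviations of same-numbered WT and KO arrays correlated at 0.30 and 0.23 at the 2 ages, with only 2 pairs. Between the ages same-numbered arrays correlated at 0.18 in WT and 0.04 in KO. These values do not settle whether the numbers pair the mice. Members and lists were chosen with earlier results of these data known. Values per array are given for the core subunits, the 8 accessory subunits with the largest 10-week difference, all assembly factors, genes outside complex I and members of opposite sign. Of other lists at most 4 genes are named, among those with the largest difference, by difference and SE, or by difference alone for atrial markers. Acad9 and Tmem186 of the other assembly genes are named besides these. The targeted gene is not reported here. The alternatives are given in the closing section.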

Additional observations from a re-analysis of the deposited data

Results flagged for a closer look

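The KO minus WT difference of 8 Nduf genes was larger at 10 than at 4 weeks by the test of that difference in limma (difference between the ages ± SE, Benjamini-Hochberg adjusted p over all genes). It was -1.32 ± 0.27 for Ndufa7 (0.0435), -1.17 ± 0.20 for Ndufs4 (0.0259), -1.14 ± 0.19 for Ndufa8 (0.0221) and -1.14 ± 0.21 for Ndufs8 (0.0289). It was -0.97 ± 0.20 for Ndufaf4 (0.0487), -0.96 ± 0.20 for Ndufs7 (0.0483), -0.91 ± 0.16 for Ndufb8 (0.0287) and -0.90 ± 0.17 for Ndufv3 (0.032). Each of the 8 lost its call under at least 1 other setting, among them the omission of either 4-week WT array. Ndufb8 stood at -0.17 (adjusted p = 0.827) without its probe set of shared sequence, where its remaining probe set was dim.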

How the results depend on the processing

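Over 19 other settings, 20 of the 34 Nduf genes called lower at 10 weeks kept their call in all, 14 lost it in at least 1, 3 that were not called gained it in at least 1, and none of the 44 reversed a called direction. The 10-week count was 31 to 35 under the settings that kept all arrays and members, except that it was 22 with only the groups of the comparison and 26 of 35 without probe sets of shared sequence. With only those groups, the accessory count was 14, the assembly count 3, and that of complexes II and III, complex IV and ATP synthase 3 each. That setting leaves fewer arrays and cannot test the difference between ages, which needs all 4 groups. With the replicate block the 10-week count was 35 and the count for the difference between ages 14, and with array weights the latter was 15. Quantile normalization again gave a median of -0.67 for all Nduf genes, -0.64 for core, -0.62 for accessory, -0.34 with 5 lower for ATP synthase, -0.21 for complex IV and -0.42 for complexes II and III, and 5 genes for the difference between ages. Averaging the probe sets of a gene gave -0.47 for complex IV and -0.48 for ATP synthase. Without probe sets of shared sequence the medians were -0.93 for core, -0.66 for ATP synthase and, at 4 weeks, -0.02 for complexes II and III. Both filters on dim genes gave -0.44 for complex IV. The cause of these shifts was not tested.

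With each array left out in turn, the lone array left in a group is assumed to vary like the others. The 10-week Nduf count was 27 to 35 and the median -0.96 to -0.75, the accessory count 18 to 24 (median -0.95 to -0.69), the core count 4 to 5 (median -0.96 to -0.82) and the assembly count 3 to 6 (median -1.06 to -0.66). The other assembly genes gave 3 to 7 (-0.81 to -0.48), complexes II and III 4 to 10 (-0.64 to -0.52), complex IV 3 to 6 (-0.44 to -0.35) and ATP synthase 5 to 8 (-0.54 to -0.43). The difference between ages gave 0 to 28 genes, the 10 minus 4 week comparison 8 to 38 lower in KO and 0 to 2 lower and 0 to 3 higher in WT. Dim probe sets, such as that of Ndufb4, limit what can be read of those genes.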

Other observations

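ND5, a core subunit of the membrane arm of complex I that is encoded in mitochondrial DNA, was read by 1 probe set and was picked after its values were seen. It read 13.41 and 13.86 in WT and 13.97 and 14.10 in KO at 10 weeks, and 13.82 and 13.87 in WT and 13.83 and 13.78 in KO at 4 weeks. The 10-week difference was 0.40 ± 0.16 (limma, adjusted p = 0.147), so it was not called. The KO mean stood at 0.63 from WT replicate 1, the lower of the pair, and at 0.18 from WT replicate 2. The gene is among the brightest measured (level percentile 100).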
